A study of Homo sapiens with 4 samples.

Results

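The kinases of the mitogen-activated protein (MAP) kinase cascades were taken from a whole-genome expression array of A549 cells, a human lung adenocarcinoma line. They were found by the gene name that the array design gives each probe: MAPK, MAP2K, MAP3K or MAP4K followed by digits only, with ZAK, a MAP3K now named MAP3K20, and NLK, a relative of the MAP kinases. The rule found 42 genes with 76 probes, out of 50238 probes for 30970 genes or transcripts on the array. They were 14 genes of the MAPK tier (NLK included), 7 of the MAP2K tier, 16 of the MAP3K tier (ZAK included) and 5 of the MAP4K tier. The control group was 2 untreated samples and the embelin group was 2 samples kept with embelin (15 µM), a plant benzoquinone, for 4h, with 1 single-colour array each. Cells of both groups had been moved to medium low in serum before the treatment, and the labels name no solvent for the controls. Since the study went on to the phosphorylation of p38, JNK and ERK in these cells, the transcripts asked about here were those of the kinases themselves. Nothing in the labels says whether the 2 samples of a group came from separate cultures, so the p-values measure only the spread between these samples. The array measures transcripts, and it carries no information on phosphorylation or activity.

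A MAP kinase cascade is a relay in which a MAP3K phosphorylates a MAP2K, and the MAP2K phosphorylates a MAP kinase on a threonine and a tyrosine of its activation loop. The best known routes end at the ERK kinases, at the stress kinases JNK and p38, and at the larger kinase ERK5, while some MAP4Ks act above the MAP3Ks. RAS proteins feed the ERK route through the RAF kinases.

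The measurements came from single 60-base probes, so the sequences behind the main results are shown first. The leading 30 bases, 5′ to 3′, are given for the probes of the kinases with the largest differences, in lower case throughout. The probes of the kinases with higher signal after embelin begin as follows.
MAPK7: gtgaggctcggcttggattattctgcaggt
MAPK6: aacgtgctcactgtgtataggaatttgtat
MAPK8: cataacacgcaatgtggatgtcgagtagtg
MAP3K2: gagcgaagagttcaattagtaatgtttatg
The probes of the kinases with lower signal after embelin begin as follows.
MAP3K12: tctaccttcagctcagagaatccatcagat
MAP3K14: caggactcacgtagcattaaatcagctgtg
MAP3K1: tttccagggcttaagggctaacttctatta
MAP2K6: acagcatcaatagaaagtcatctttgagat
The 2 probes of MAPK14 that gave usable signal went opposite ways. The brighter of them begins as follows.
MAPK14, brighter probe: gaatgagggaaattgctattttatttgtat
The position of the probes in their transcripts was not determined, because no transcript sequences were used here.

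The 4 arrays shared a single slide and a single scan. Controls took its outer positions (1 and 4) and embelin samples its inner ones (2 and 3), and this cannot be told apart from treatment. Control replicate 1 and embelin replicate 2 had 66.7% and 66.4% of all probes well above background by the scanner software, as against 50.3% and 51.2% for control replicate 2 and embelin replicate 1. The correlation of log2 signal was taken over the 17298 genes with a value on all 4 arrays, each read on its brightest kept probe. It was 0.973 between the controls, 0.972 between the embelin arrays and 0.926 to 0.968 between the groups. All 7 epithelial markers looked for were well above background on all 4 arrays, and none of the 3 endothelial markers was kept. Among leukocyte markers 2 of 5 were kept (CD14 and CD3E, while PTPRC and CD3D were not), and among fibroblast markers 1 of 4 (COL1A1, while COL1A2, DCN and LUM were not). COL1A1 was at 6.38 and 6.27 in the controls and 7.56 and 7.69 after embelin (limma adjusted p = 0.055). CD3E was at 5.39 and 4.85 in the controls and 7.01 and 5.74 after embelin (limma adjusted p = 0.290). Only 1 of the control arrays had CD3E well above background, and it was kept through its embelin arrays. CD14, much brighter than these, went the other way. It was at 9.39 and 9.68 in the controls and 9.06 and 8.80 after embelin (limma adjusted p = 0.232). The part of these markers in the results was not tested.

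Values below are log2 of the array signal after the 75th percentiles of the 4 arrays were made equal. A probe was kept when, in 1 group or the other, both arrays had it well above background, and the brightest kept probe stood for its gene. Of the 76 probes 56 were kept, which left 35 of the 42 genes tested. MAPK4, MAPK10, MAPK13, MAPK15, MAP2K7, MAP3K15 and MAP4K1 had no kept probe. A gene was called when its limma p was under 0.05 after Benjamini-Hochberg adjustment for 17649 genes. Standard errors (SE) and 95% intervals are those of limma, with 2 arrays in each group.

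Among the 35 kinases 1 was called, MAPK7, which rose. The background of such calls was 1.25% of all genes tested in the rising direction and 0.561% in the falling direction, and no kinase was called lower. Without adjustment, 4 kinases had a limma p under 0.05 in the higher direction, against 8.36% of all genes, and 7 in the lower direction, against 11.1% of all genes. A change of at least 2-fold was seen in 2 kinases, MAPK7 (higher) and MAP3K12 (lower), against 12.6% of all genes. The embelin and control arrays did not overlap in 19 of the 34 kinases with a value on all 4 arrays (55.9%), and this share was 51.8% over all genes. The median log2 fold change of the 35 kinases was -0.09, beside -0.06 for all genes, with 14 kinases on the higher side and 21 on the lower side. The lower side thus held 60% of the kinases, near the 56.1% of all genes. The median size of the log2 fold change was 0.42 for the kinases and 0.30 for all genes.

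By tier, 6 of the 10 MAPK genes tested were on the higher side and 4 on the lower, with a median log2 fold change of 0.03. For the MAP2K tier 2 of 6 were higher and 4 lower, with a median of -0.36. For the MAP3K tier 4 of 15 were higher and 11 lower, with a median of -0.30. The 4 MAP4K genes were split evenly, with a median of 0.03. The differences between tiers were not tested, and without single arrays the MAP4K median ran from -0.19 to 0.25 and the MAPK median from -0.12 to 0.27. The MAP2K median ran from -0.54 to -0.10, and the MAP3K median from -0.41 to -0.012, the last without embelin replicate 1.

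**Figure D1:**
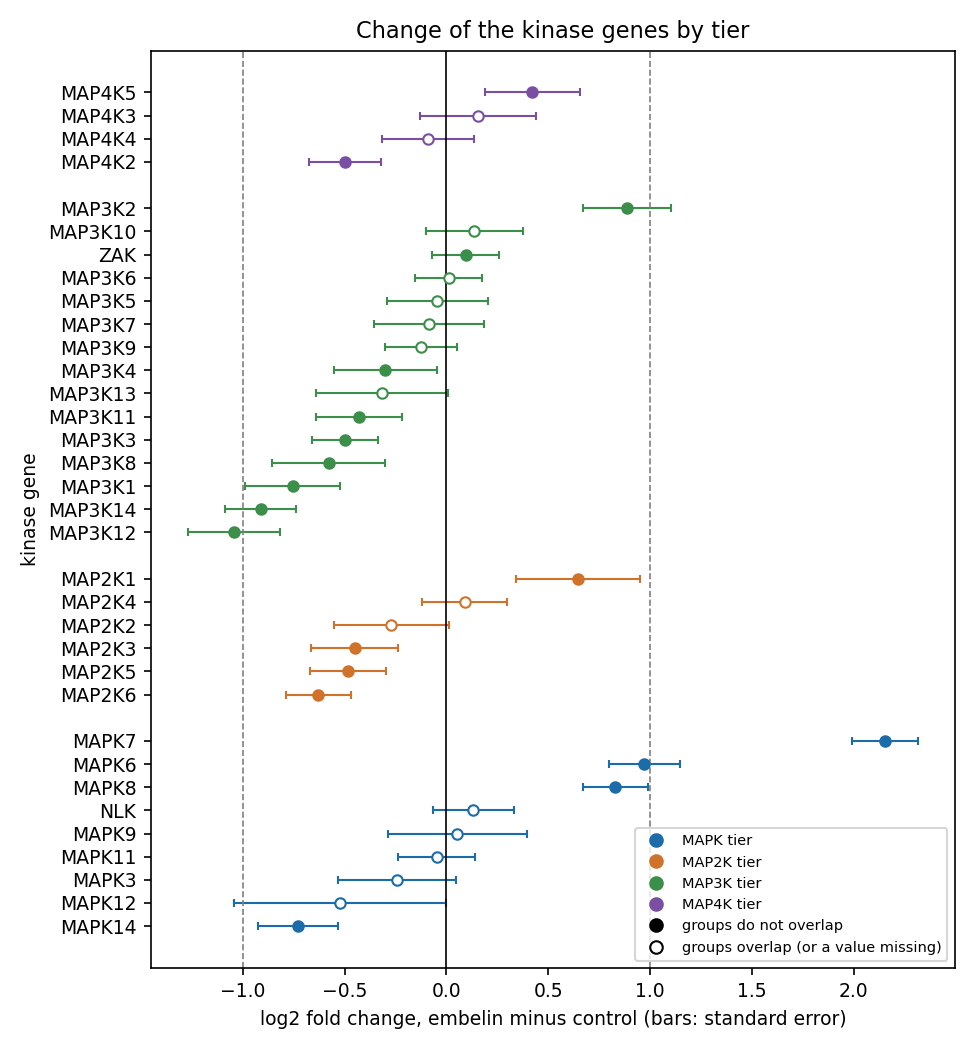
Log2 fold change of 34 of the 35 kinase genes tested, embelin minus control (horizontal axis), with its SE as a bar and with genes grouped by tier (vertical axis); filled points mark genes whose 2 embelin arrays both lie on one side of both control arrays, and dashed lines mark a 2-fold change. MAPK7, at 2.16, is apart from all other kinases, which lie between -1.04 (MAP3K12) and 0.97 (MAPK6).

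MAPK7 encodes ERK5, a MAP kinase with a long tail that can itself drive transcription, best known for its part in endothelial cells and in the response to growth factors and oxidative stress. Its log2 signal was 10.04 and 10.14 in the control samples and 12.21 and 12.28 in those given embelin. Both embelin values were thus far above both control values. The mean rose from 10.09 ± 0.068 to 12.25 ± 0.048 (SD, n = 2 each), which is 4.46-fold (log2 fold change 2.16, SE 0.16, limma adjusted p = 0.027), and the 95% interval of the log2 fold change was 1.71 to 2.60. In such bulk samples, a change in the make-up of the cells and a change in RNA per cell cannot be told apart. The change was larger in size than that of 97.7% of all genes tested.

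MAPK7 was also the kinase measured with the most spots, since its probe is printed 11 times on each array and the probes of all other kinases once. On the control arrays the 11 spots ran from 9.97 to 10.09 for replicate 1 and from 10.08 to 10.25 for replicate 2. After embelin they ran from 12.15 to 12.29 for replicate 1 and from 12.20 to 12.35 for replicate 2. No spot of a control array came near a spot of an embelin array, and the SD over the spots of an array was 0.040 to 0.049. Spots of an array share 1 sample, so they bear on the measurement and not on the number of replicates. The call was lost without any 1 of the 4 arrays, which leaves 1 array in a group. It was also lost without a filter on dim probes, with the methods' t-test, with the replicate number as a block and with slide position as a covariate. Slide position was entered as a running number, which left the log2 fold change of MAPK7 as it was. It cannot separate the outer from the inner positions. MAPK7 stayed called with normexp, quantile normalization, the deposited values and the filter asking for all 4 arrays. The same held with trend and robust, the mean over probes and each probe on its own (limma adjusted p 0.0017 to 0.037 over these settings). Its log2 fold change stayed between 2.07 and 2.24 over all alternatives.

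MAPK6, or ERK3, is an atypical MAP kinase without the usual activation loop pair of threonine and tyrosine, known for its rapid turnover. Its signal was 11.64 and 11.47 in the controls and 12.46 and 12.60 after embelin, so that the groups did not overlap. The log2 fold change was 0.97 (SE 0.17, adjusted p = 0.087), just under 2-fold at 1.96. The other kept probe of MAPK6, much dimmer, gave a log2 fold change of 1.33 with 7.53 and 6.91 in the controls and 8.17 and 8.92 after embelin. Both probes thus had higher values on both embelin arrays. The gene has processed copies in the genome, and whether the probes also match those was not examined. MAPK6 was called when only probes well above background on all 4 arrays were tested and with the trend and robust options of limma (adjusted p 0.020 to 0.501 over all alternatives).

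The JNK kinases phosphorylate JUN and other transcription factors under stress. MAPK8, or JNK1, had a signal of 9.87 and 9.96 in the controls and 10.74 and 10.75 after embelin, a clear gap between the groups. The log2 fold change was 0.83 (SE 0.16, adjusted p = 0.097), or 1.78-fold. Its 2 other probes were not kept. MAPK9, or JNK2, behaved differently on the arrays, with 8.86 and 9.49 in the controls and 8.92 and 9.53 after embelin. The spread within each group was larger than the difference between them (log2 fold change 0.05, SE 0.34, 95% interval -0.88 to 0.99, adjusted p = 0.954), and 2 further probes, which share 59 of their bases, gave -0.12 and -0.21. The difference between MAPK8 and MAPK9 was not tested. MAPK10, or JNK3, found mainly in neurons, was not kept: its signal was 3.75 and 3.61 in the controls and 6.04 and 4.36 after embelin, and only embelin replicate 2 was well above background.

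The p38 kinases respond to stress and cytokines. MAPK14, or p38 alpha, the main form in most cells, had a signal of 11.07 and 10.87 in the controls and 10.11 and 10.38 after embelin on its brighter probe, with no overlap. The log2 fold change was -0.73 (SE 0.20, 95% interval -1.26 to -0.19, adjusted p = 0.164), or 1.66-fold lower. Its dimmer probe ran the other way, from 6.37 and 6.67 in the controls to 7.07 and 6.76 after embelin. That is a log2 fold change of 0.40 (SE 0.22, adjusted p = 0.444 with each probe counted on its own), again with no overlap. The deposited annotation gives these probes to different transcript records of the gene. With the mean over its kept probes, MAPK14 came to -0.17, so the sign of a change in p38 alpha message depended on which probe was read. The remaining MAPK14 probe was not kept.

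MAPK11, or p38 beta, had a signal of 10.84 and 10.83 in the controls and 10.94 and 10.64 after embelin. The embelin values lay on either side of the controls (log2 fold change -0.05, 95% interval -0.56 to 0.47, adjusted p = 0.926). MAPK12, or p38 gamma, a form best known from muscle, was the least precise of the kinases, with 7.36 and 8.64 in the controls and 7.16 and 7.79 after embelin. Its log2 fold change of -0.52 had an SE of 0.52 (adjusted p = 0.644), and the sign turned when control replicate 2 was left out (0.12). MAPK13, or p38 delta, was not kept on either of its probes, whose signals were 3.56 to 5.02 over the 4 arrays.

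MAPK3, or ERK1, carries the mitogen signal from RAS and RAF. It had a signal of 8.15 and 8.31 in the controls and 7.64 and 8.33 after embelin, so that the embelin arrays lay on both sides of the controls (log2 fold change -0.24, 95% interval -1.04 to 0.55, adjusted p = 0.708). A change of the size seen for MAPK7 thus lies outside this interval. NLK, a kinase linked to WNT and NOTCH signalling, gave 0.13 (SE 0.20, adjusted p = 0.776).

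The other atypical MAP kinases were near background. The 3 probes of MAPK4, or ERK4, were at 2.39 to 4.84 apart from 1 probe on control replicate 2 at 7.54. MAPK15, or ERK8, was at 3.30 to 4.26 apart from 1 probe on control replicate 2 at 8.13. Such lone values also occurred in MAP2K7, with 1 probe at 8.06 on embelin replicate 1 and at 3.72 or less on the other arrays. These lone values lay on the 2 arrays with fewer probes above background and were given no fold change.

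**Figure D2:**
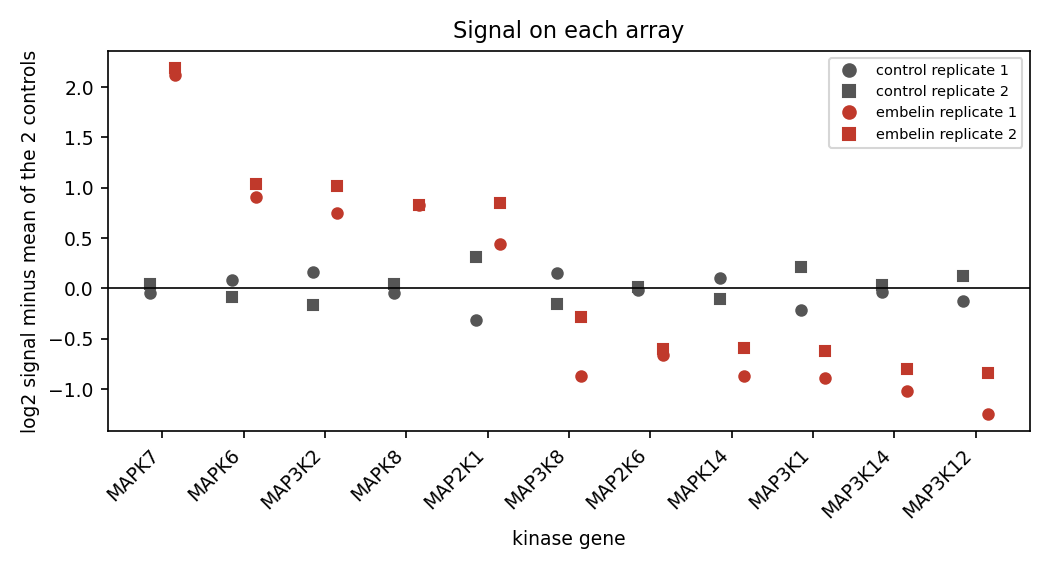
Log2 signal on each array minus the mean of the 2 control arrays (vertical axis), for the 11 kinases (horizontal axis) whose groups did not overlap and whose log2 fold change was at least 0.5 in size; grey marks are control and red marks are embelin arrays, with circles for replicate 1 and squares for replicate 2. The embelin arrays of MAPK7 lie more than 2 above its controls, while MAP2K1 and MAP3K8 have the smallest gaps between the groups.

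In the MAP2K tier none of the 6 genes tested was called. MAP2K6 and MAP2K3, or MKK6 and MKK3, are the kinases that act on p38. MAP2K6 had a signal of 10.42 and 10.46 in the controls and 9.78 and 9.84 after embelin, with little spread in either group. The log2 fold change was -0.63 (SE 0.16, adjusted p = 0.148), or 1.55-fold lower. A second MAP2K6 probe was at 6.10 and 6.32 in the controls. After embelin it read 5.48 and 3.62, not well above background on either array (limma adjusted p = 0.306 with each probe counted on its own). Its control mean was 2.42-fold above the lowest signal that counted as above background there. That figure averages the embelin arrays. Against each alone it was 1.18-fold for replicate 1, which had the higher background, and 4.97-fold for replicate 2. It is not a strict limit. On embelin replicate 1 the lowest such signal was 5.97, yet the MAPK10 probe at 6.04 did not count as above background. The second probe was thus kept only through its control arrays, and its lower reading does not add to the result of the first probe. MAP2K3 had 13.95 and 14.33 in the controls and 13.61 and 13.78 after embelin. Its groups did not overlap, with a log2 fold change of -0.45 (SE 0.21, adjusted p = 0.348) and -0.42 on the other probe.

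MAP2K5, or MEK5, is the kinase that acts on ERK5. It had a signal of 8.34 and 8.33 in the controls and 7.703 and 7.997 after embelin, so its values were on the opposite side of the controls from those of MAPK7. The log2 fold change was -0.48 (SE 0.19, 95% interval -0.99 to 0.026, adjusted p = 0.274). MAP2K4, or MKK4, which acts on JNK and p38, had 12.37 and 12.67 in the controls and 12.49 and 12.73 after embelin (log2 fold change 0.09, 95% interval -0.48 to 0.66, adjusted p = 0.864). The groups overlapped for MAP2K4. MAP2K7, or MKK7, the kinase specific to JNK, was not kept on either probe. Besides its lone value, its signals were at most 4.87.

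MAP2K1 and MAP2K2, or MEK1 and MEK2, act on the ERK kinases. MAP2K1 had a signal of 11.38 and 12.01 in the controls and 12.14 and 12.54 after embelin. The embelin values were the higher ones, yet the spread between the controls was close to the difference between the groups (log2 fold change 0.65, SE 0.30, adjusted p = 0.348). MAP2K2 had 12.39 and 13.04 in the controls and 12.34 and 12.54 after embelin. Its groups overlapped (log2 fold change -0.27, SE 0.28, adjusted p = 0.660).

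In the MAP3K tier none of the 15 genes tested was called, while 1 had an unadjusted p under 0.05 in the higher direction and 4 in the lower direction. MAP3K2, or MEKK2, which acts on MAP2K5 and on the JNK route, was the one on the higher side. Its signal was 8.53 and 8.19 in the controls and 9.11 and 9.38 after embelin, a log2 fold change of 0.89 (SE 0.22, adjusted p = 0.138) or 1.85-fold. Its second probe gave 0.99, from 7.20 and 6.38 to 7.80 and 7.77. Neither probe overlapped between the groups. MAP3K3, or MEKK3, its nearest relative, which shares the MAP2K5 substrate, was on the other side at 12.13 and 12.02 in the controls and 11.57 and 11.59 after embelin (log2 fold change -0.50, SE 0.16, adjusted p = 0.216), with -0.34 on its second probe. The 95% intervals were 0.30 to 1.47 for MAP3K2 and -0.94 to -0.057 for MAP3K3, and the difference between the genes was not tested.

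MAP3K12, or DLK, a kinase of the JNK route studied mostly in neurons, had the lowest log2 fold change of the 35 kinases. Its signal was 7.96 and 8.22 in the controls and 6.85 and 7.25 after embelin, with a log2 fold change of -1.04 (SE 0.23, adjusted p = 0.119) or 2.06-fold lower. The size was unequal over the arrays: embelin replicate 2 was 0.71 below control replicate 1, and embelin replicate 1 was 1.37 below control replicate 2. Without control replicate 2 (-0.92) or embelin replicate 1 (-0.84), or with normexp background correction (-0.73), it no longer passed 2-fold.

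MAP3K14, or NIK, sets off the alternative NF-kB route. It had a signal of 11.20 and 11.27 in the controls and 10.22 and 10.43 after embelin. The groups were well apart, with a log2 fold change of -0.91 (SE 0.17, adjusted p = 0.097), or 1.88-fold lower. MAP3K8, or TPL2, a kinase above MEK1 in the response to inflammatory signals, had 10.62 and 10.32 in the controls and 9.60 and 10.19 after embelin. The groups did not overlap, though embelin replicate 2 lay close to the controls (log2 fold change -0.58, SE 0.28, adjusted p = 0.354).

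MAP3K1, or MEKK1, a kinase of the JNK route with a ubiquitin ligase domain, had a signal of 10.92 and 11.34 in the controls and 10.24 and 10.51 after embelin. All embelin values were below the controls, with a log2 fold change of -0.75 (SE 0.23, adjusted p = 0.203), or 1.69-fold lower. A second probe, which shares 20 bases with the first, gave -0.78. The remaining MAP3K1 probe, close to background, was not kept.

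The other MAP3K genes had smaller values. MAP3K11, a mixed-lineage kinase, had a log2 fold change of -0.43 (adjusted p = 0.366), MAP3K13 of -0.32, MAP3K4 of -0.30, MAP3K9 of -0.12 and MAP3K10 of 0.14. The last rests on 1 embelin array, because the spot of embelin replicate 1 was marked as an outlier. MAP3K7, or TAK1, which relays cytokine signals, was at -0.09, MAP3K5, or ASK1, the kinase switched on by oxidation of thioredoxin, at -0.045 and MAP3K6 at 0.01. For MAP3K5 the 95% interval was -0.72 to 0.63. MAP3K15 was not kept, with 5.63 and 5.11 in the controls and 5.93 and 6.77 after embelin.

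ZAK, a MAP3K known as a sensor of stalled ribosomes, had 4 probes. All 4 were kept, and their log2 fold changes ran from 0.053 to 0.12. A pair of these overlap by 50 bases and differ there by 1 base, A45G, counted from the 5′ end of the first probe, which is in capitals in the stretches shown.
ZAK, first probe: acaaaccaaaaagtcAggtagcaacaaact
ZAK, second probe: acaaaccaaaaagtcGggtagcaacaaact
Their log2 fold changes were 0.065 and 0.12. The brightest ZAK probe had a signal of 11.74 and 11.90 in the controls and 11.93 and 11.91 after embelin (SE 0.17, 95% interval -0.36 to 0.55, adjusted p = 0.809).

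MAP4Ks act above the MAP3Ks in the JNK route, and none of the 4 tested was called. MAP4K2 had a signal of 8.01 and 8.12 in the controls and 7.45 and 7.68 after embelin (log2 fold change -0.50, SE 0.18, adjusted p = 0.250). MAP4K5 had 10.24 and 9.75 in the controls and 10.41 and 10.42 after embelin, a log2 fold change of 0.42 (SE 0.23, adjusted p = 0.406). All 4 of its probes were on the higher side, from 0.36 to 0.76. MAP4K4 was at -0.09, with -0.11 and 0.24 on its other kept probes, and MAP4K3 was at 0.16. MAP4K1, or HPK1, which is found mainly in blood cells, was not kept, at 5.12 to 5.83 on the 4 arrays.

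In all, 14 kinases had more than 1 kept probe, and in 9 of these all kept probes had the same sign. MAP2K6 counts among the 9 through a probe kept only on its control arrays. The exceptions included MAPK9, MAP3K6 and MAP4K4, with values of at most 0.24 in size, and MAPK14. Probes of a gene can lie in different transcripts, and which transcripts they match was not examined.

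**Figure D3:**
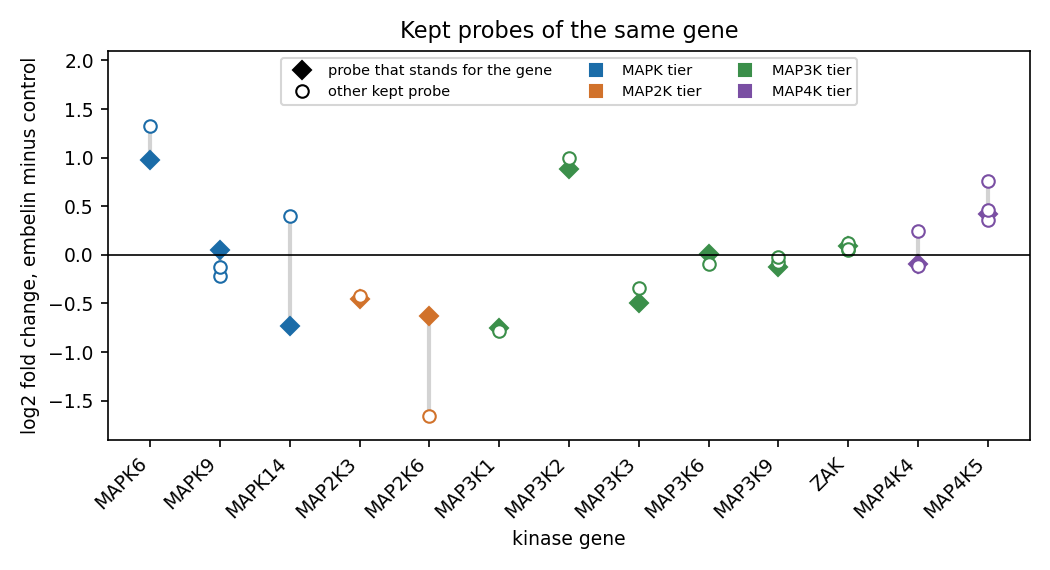
Log2 fold change, embelin minus control (vertical axis), of every kept probe of 13 of the 14 kinases with more than 1 (horizontal axis); diamonds are the brightest probe, which stood for the gene, circles are the other probes and colours are tiers. The probes of MAPK14 lie on opposite sides of 0, at -0.73 and 0.40, and those of MAP2K6 lie at -0.63 and -1.66. The last is from a probe near background after embelin, so its size is not a measured fold change.

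Since the arrays differed in background, the difference was also taken within 2 pairs of arrays of like background. The first pair was control replicate 1 with embelin replicate 2, and the second was control replicate 2 with embelin replicate 1. The difference had the same sign in both pairs in 23 of 34 kinases. In the 19 kinases whose groups did not overlap, this was fixed in advance. Groups did not overlap in 55.9% of the kinases and in 51.8% of all genes. The share of all genes with the same sign in both pairs was not taken. MAPK7 was at 2.24 and 2.07 and MAPK6 at 0.96 and 0.99, close to equal in the pairs. MAPK8 was at 0.88 and 0.78, MAP3K2 at 0.85 and 0.92, MAPK14 at -0.69 and -0.76, and MAP2K6 at -0.58 and -0.68. MAP2K1, by contrast, was at 1.17 in the first pair and 0.13 in the second, and MAPK12 at 0.44 and -1.48. The part of the background in these differences was not tested. The median of the MAP2K tier was -0.012 in the first pair and -0.65 in the second. That of the MAP3K tier was -0.066 and -0.40. The MAPK median was 0.36 and -0.12, and the MAP4K median 0.058 and 0.0056. The MAP2K and MAP3K medians thus lay close to 0 in the pair of lower background.

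**Figure D4:**
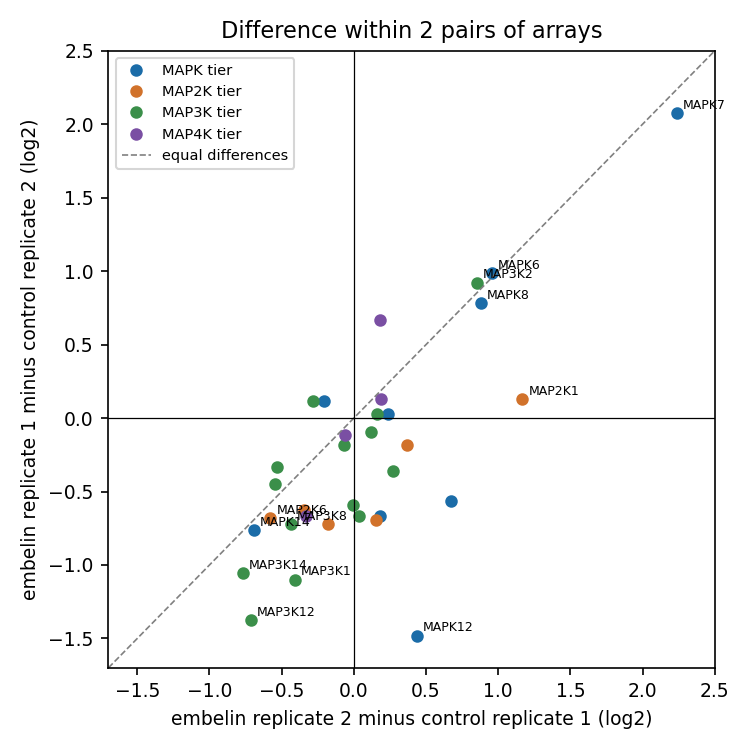
Embelin minus control in log2 within the pair of arrays with lower background (horizontal axis, embelin replicate 2 minus control replicate 1) against the same within the pair with higher background (vertical axis, embelin replicate 1 minus control replicate 2), for 33 of the 34 kinases coloured by tier; the dashed line marks equal differences. MAPK7, MAPK6, MAPK8 and MAP3K2 lie near the line, and MAPK12 and MAP2K1 lie far from it.

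The pathway's other genes were counted from lists of names. The first list held the RAF kinases, MOS, KIAA1804, kinases of the STE20 group with other names, and TESK1, a cofilin kinase of another family. All 15 were tested, and none was called. With limma p taken without adjustment, 2 were higher and none lower, PAK2 (log2 fold change 0.57) and TESK1 (0.70), and the median of the list was 0.11. Of the scaffolds and adaptors, 15 were tested and none called, with 3 higher and 1 lower at an unadjusted p under 0.05 and a median of 0.04. SPAG9, or JIP4, a scaffold for JNK and p38, was at 11.14 and 11.12 in the controls and 12.02 and 12.33 after embelin (log2 fold change 1.04, adjusted p = 0.089), and all 5 of its kept probes were on the higher side, from 0.68 to 1.04. LAMTOR3, the scaffold of MEK1 and ERK1 on late endosomes, was at 0.63 and TRAF6, a ubiquitin ligase above TAK1, at 0.45. TRAF2, an adaptor of tumour necrosis factor receptors, was at -0.71 (adjusted p = 0.126).

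Of 11 kinases that MAP kinases activate, 10 were tested, none was called and none had an unadjusted p under 0.05. They were higher in 2 and lower in 8, with a median of -0.16, while 56.1% of all genes were lower. MAPKAPK2, the main p38 substrate kinase, was at -0.08 on its brightest probe and at 0.29 on its other kept probe. All 7 RAS family genes and their exchange or adaptor proteins found on the array were tested and none was called, with a median of 0.27 and 2 with an unadjusted p under 0.05, both on the higher side.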

How the data were processed

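The authors deposited scanner intensities of 4 single-colour arrays, made with Feature Extraction (10.7.3.1 in the headers), with background subtracted and trends within an array corrected, and not normalized between arrays. Their table of probe values was used only as an alternative. Intensities were scaled to a common 75th percentile, given a floor of 1 and log2 transformed. Outlier spots were left out and spots of a probe averaged. Of 50238 probes 26146 were kept. Gene names were those of the array design, updated by accession through a RefSeq table for 28590 probes. Groups were compared by limma 3.58.1 under R 4.3.3 (lmFit, then eBayes, prior of 2.16 degrees of freedom, prior SD 0.217), following the 2-group comparison, 75th percentile shift and 2-fold threshold of the methods. The median pooled SD was 0.210, with precision limited by how few arrays there were. The fit was tested on simulated data.

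The kinases, the lists and the settings were chosen with earlier results of these data known. Kinases were named by tier, with full values for those called, changed 2-fold, not overlapping with a log2 fold change of at least 0.5, with probes in disagreement, or belonging to the p38, JNK and ERK genes and the MAP2Ks. MAP3K3 and other kinases given with array values beyond this rule were chosen after their values were seen. The alternatives were normexp (offset 50), quantile normalization, the authors' deposited table, 2 other filters on dim probes, eBayes with trend and robust, the methods' t-test, mean over probes, each probe on its own, the replicate number as a block, slide position as a covariate, and each array left out. The pairs of like background were added after the values were seen. A few items are not reported here by name, although counts and medians hold them.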

Additional observations from a re-analysis of the deposited data

How the results depend on the processing

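With limma, the count of kinases called (1, MAPK7) and of all genes called (320) was as follows under other settings. It was 0 kinases and 0 genes without a filter on dim probes, with the methods' t-test after Benjamini-Hochberg adjustment, and with slide position as a covariate. At the methods' own threshold of an unadjusted t-test and 2-fold, 1 kinase was higher and 1 lower, each 2.94% of the kinases with 4 values, against 3.05% and 2.73% of all genes. The samples share replicate numbers only (correlation of same-numbered deviations 0.175 over 2 pairs), and with the number as a replicate block 0 kinases and 0 genes were called, although 1673 genes were higher and 2070 lower at an unadjusted p under 0.05. Without any 1 array the counts ran from 0 to 0. The filter asking for all 4 arrays gave 2 kinases (MAPK7 and MAPK6) and 764 genes, and eBayes with trend and robust gave 4 kinases (MAPK7, MAPK6 and MAPK8 higher, MAP3K14 lower) and 1061 genes. Normexp gave 699 genes and the deposited values gave 159 genes, with MAPK7 as the 1 kinase called in both. Kinases changed at least 2-fold (2) were 1 with normexp, 6 without the filter, 4 with the mean over probes, 4 with each probe on its own, 1 to 5 without single arrays and 5 in the noisier pair.

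Of 19 kinases given in full, 13 kept their direction in the 10 alternatives that moved a log2 fold change. All 13 have groups that do not overlap, and the groups of the others overlap. For such a kinase, leaving out an array or taking a pair of arrays cannot turn the sign where the groups are apart. The count therefore largely restates which groups did not overlap. The 6 other alternatives left the log2 fold changes of these 19 kinases as they were. MAPK9 came to -0.094 with the mean over probes and -0.57 in the noisier pair, and ran from -0.26 (without control replicate 1) to 0.37 without single arrays. For MAP2K4 the noisier pair gave -0.19, and single arrays left out gave -0.063 (control replicate 1) to 0.24. For MAPK11 the same gave 0.11, and -0.20 to 0.10 (embelin replicate 2). The pair of lower background gave 0.18 for MAPK3, 0.44 for MAPK12 and 0.15 for MAP2K2. Without single arrays these ran from -0.59 to 0.10 (embelin replicate 1 left out), from -1.16 to 0.12 and from -0.60 to 0.054 (both control replicate 2 left out). The cause was not tested. A probe near background on the 2 noisier arrays has no measured fold change here, which limits what can be said of the 7 kinases not kept.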
